A study of Mus musculus with 6 samples.

Results

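The 39 genes examined here serve the repair of DNA crosslinks and of broken chromosomes by homologous recombination, together with the checkpoint kinases that act with them. They were taken by name, from a list of Fanconi anaemia, BRCA, recombination, break-end and checkpoint genes, and all 39 were found among the 16312 genes of the count table and passed the filter on low counts. The libraries come from haematopoietic stem cells (HSCs), the rare marrow cells from which all blood is renewed, sorted by flow cytometry from male mice. The old group held 3 libraries from mice of 22 months and the young group 3 libraries from mice of 8 to 12 weeks, the age label being that at the procedure. All 6 samples are C57BL/6N by the series title and are labelled as B6 controls of a parabiosis study, in which animals are joined surgically. The sources used here do not state the sort's surface markers, how many cells were taken or whether animals were pooled.

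As background, a crosslink ties the strands of the helix together and stops the replication fork. The Fanconi core complex then attaches ubiquitin to the FANCD2 and FANCI proteins, nucleases unhook the lesion, and BRCA1, BRCA2 and their partners in recombination rebuild the chromosome from its sister copy. Recombination of this kind works mainly in cells that are copying or have copied their DNA, and inherited loss of Fanconi genes in people leads to bone marrow failure. Most HSCs of an adult are quiescent and enter the cell cycle rarely.

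Old replicate 2 was the shallowest library, at 12494557 estimated counts, and young replicate 3 the deepest, at 30931680, and the 39 genes had between 38 and 12061 counts in a library. Values are CPM, counts scaled to a common library total after TMM, a method that evens out library composition. Fold changes are old over young on a log2 scale, with the standard error (SE), and a gene was called where the adjusted p of edgeR's quasi-likelihood test over 14288 genes lay under 0.05. The HSC markers Procr, Slamf1, Kit, Hlf and Mecom were present in all 6 libraries, and the 11 HSC markers summed to 4161, 4439 and 4531 CPM in old replicates 1, 2 and 3, against 3968, 4525 and 3894 CPM in young replicates 1, 2 and 3. Of these 11 markers, 2 were called higher in old HSCs and none lower, where 2.45% of all tested genes were called higher. Their median log2 fold change was 0.48, with 9 above 0. For 6 of the 11 every old value lay above every young one, which held for 11.6% of all tested genes. The title and the description of young replicate 2 carry different library numbers, so counts of calls are also given without it.

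Old HSCs had less RNA of 7 of the 39 genes, and no gene was higher by the same test. The 7 were Rad54b, Brip1, Exo1, Brca1, Blm, Rad18 and Brca2, between 1.604-fold and 2.49-fold lower. Their share of the 39 was 17.9%, where 1.54% of all tested genes were called lower and 2.45% higher. In the estimates the lower direction went further, with 37 of 39 log2 fold changes below 0, against 51.8% of all tested genes. Over the 12 alternatives between 34 and 38 were below 0. The middle of the ranked log2 values, their median, was −0.41 for the 39 genes and −0.017 for all tested genes. For 19 genes the unadjusted p was under 0.05 with a lower old level, where 7.63% of all tested genes did so. For 20 genes, 51.3%, the highest old value lay below the lowest young value, which held for 10.8% of all tested genes, and for none did the groups part the other way (11.6% of all tested genes). Summed over the 39 genes, the level was 1978, 1907 and 1756 CPM in old replicates 1, 2 and 3, against 2662, 2267 and 2613 CPM in young replicates 1, 2 and 3. The sums averaged 1880.2 ± 114 CPM in old and 2514 ± 216 CPM in young HSCs (SD, n = 3 each), and the groups did not overlap. In these bulk libraries, fewer cells that carry a transcript and less of it per cell cannot be told apart.

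**Figure D1:**
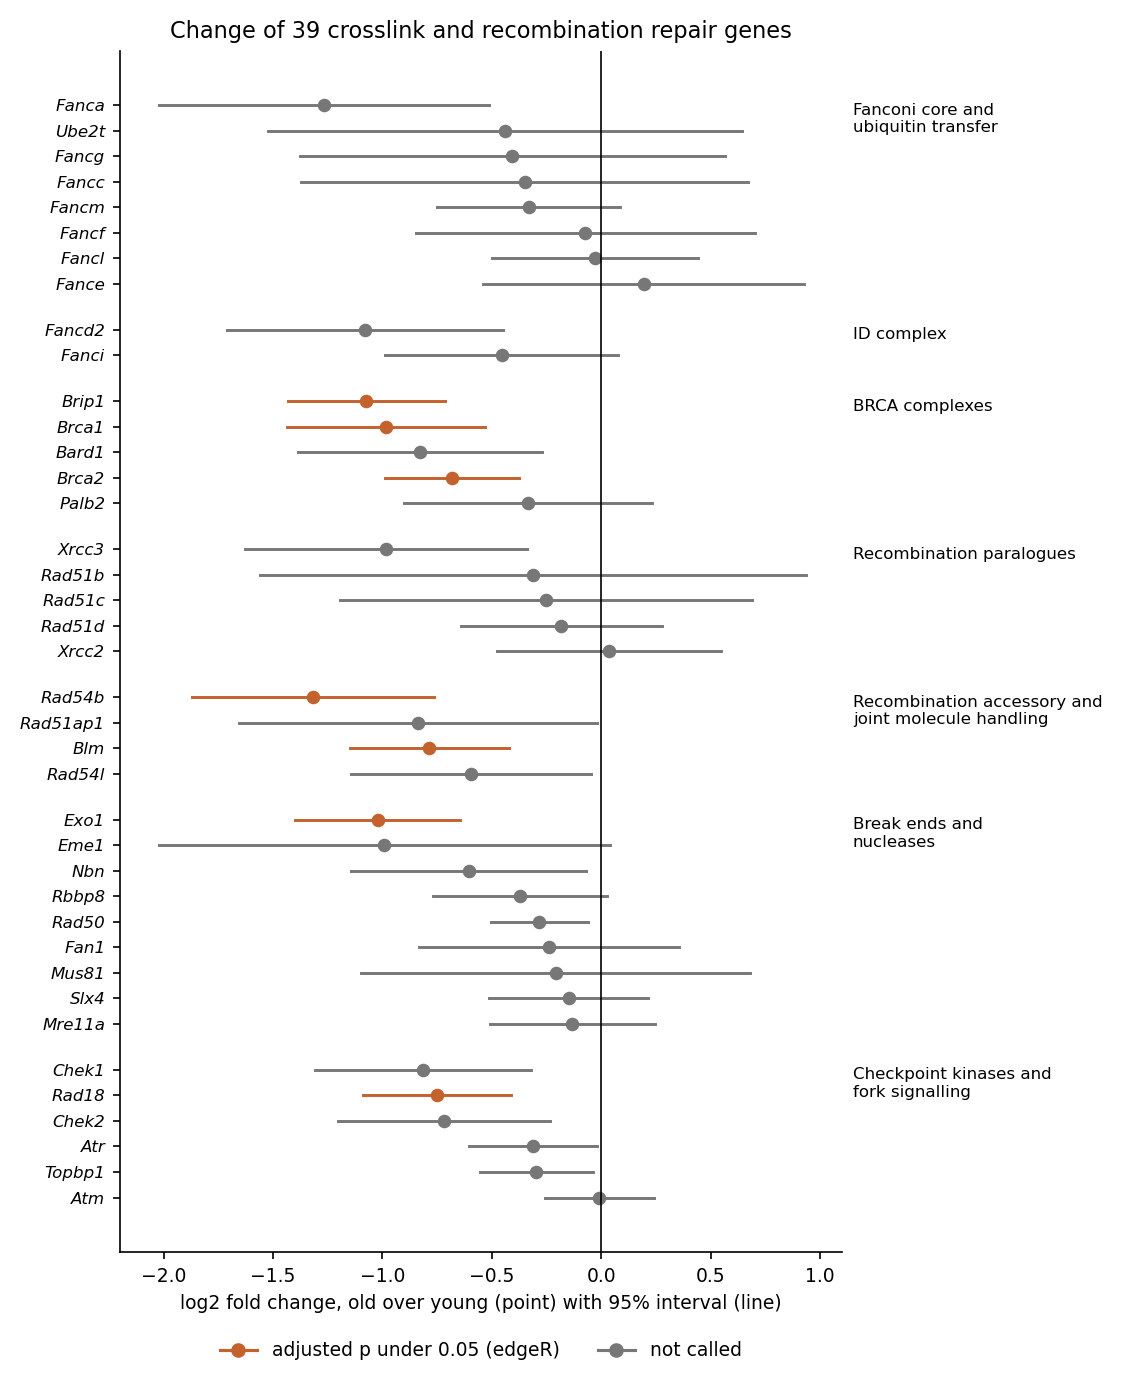
Log2 fold change of each of the 39 repair genes, old over young (horizontal axis, points), with its 95% interval from the edgeR fit (lines), grouped by role. The 7 genes called at an adjusted p under 0.05 are orange and lie between −1.32 and −0.68, while 7 of 8 Fanconi core genes and 4 of 5 recombination paralogues have intervals across 0.

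The count of 7 depended on single libraries. Leaving out old replicate 1, 2 or 3 gave 3, 4 or 3 calls, and leaving out young replicate 1, 2 or 3 gave 5, 8 or 3. Calls of lower genes over all tested genes fell too, from 220 with all 6 libraries. They numbered 98, 138 and 79 without old replicates 1, 2 and 3, and 165, 163 and 167 without young replicates 1, 2 and 3. Between 14530 and 14668 genes were tested in each of these fits. Brip1, Exo1 and Rad54b were called in each of these 6 fits. The median of the 39 genes stayed between −0.53 and −0.38 in them. DESeq2 on the same counts called 13 genes lower, adding Fanca, Fancd2, Bard1, Chek1, Chek2 and Xrcc3 to the 7. It called lower 3.22% of the 15335 genes to which it gave an adjusted p.

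**Figure D2:**
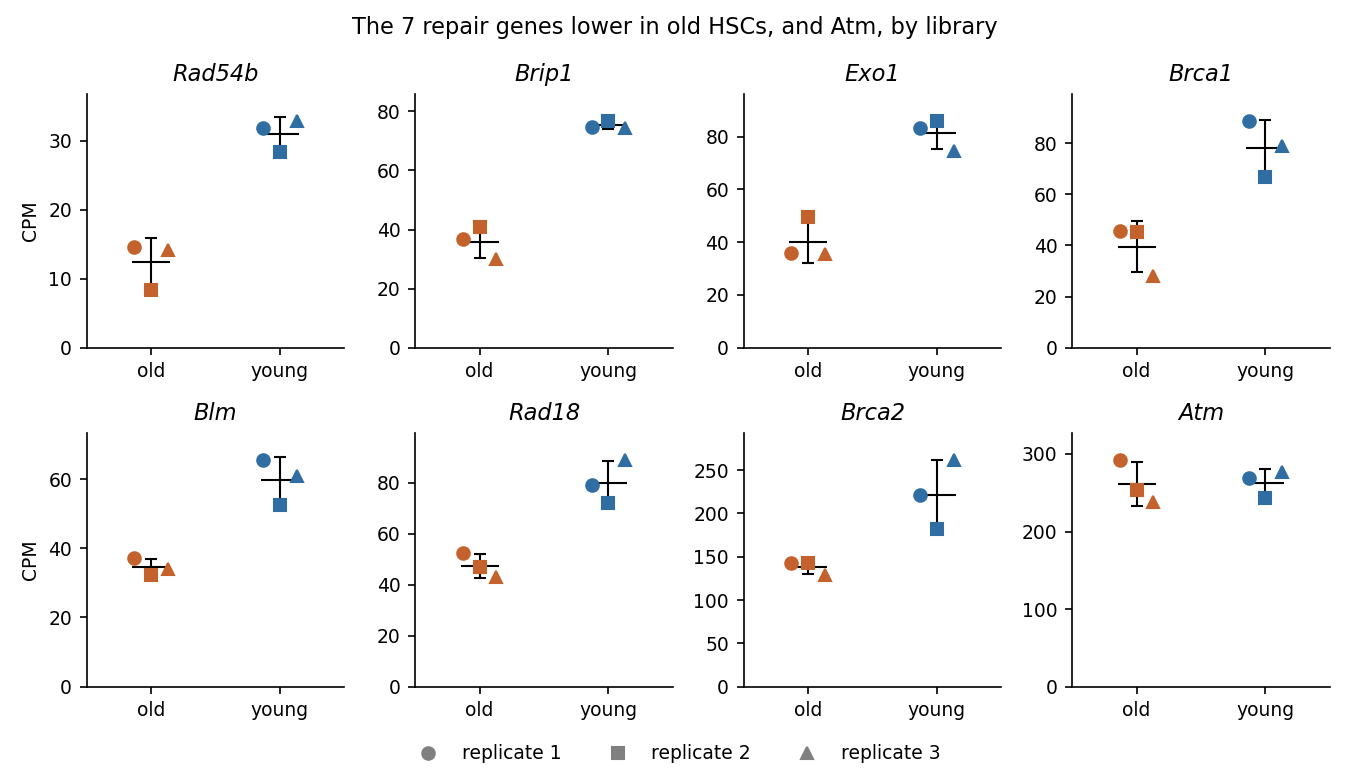
CPM (vertical axes, from 0) of the 7 repair genes lower in old HSCs and of Atm in each library, with old left of young. Symbols give the replicate, horizontal bars the mean and error bars the SD (n = 3), and the old and young values are apart in all panels but that of Atm.

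RefSeq's table for GRCm38.p6 held windows of 250 bases before to 50 after the start for 31 of the 39 genes, 35 windows in all, and none for Rad50, Rad51d, Nbn, Exo1, Fancd2, Rbbp8, Rad54b and Xrcc2. Both strands were searched for an E2F-type motif, whose first spelling was TTCCCGC. Its other spellings were TTGGCGC, which differs in the middle, then likewise TTCGCGC, and finally the spelling TTGCCGC. The cell cycle homology region was searched with the spelling TTTGAA and with its sister spelling TTCGAA. A further motif was CCAAT. The E2F-type spelling with GG and the CCAAT motif can share bases. As background, E2F factors are known to drive genes of S phase. An E2F-type motif was in 48.6% of the repair gene windows, 15.4% of the 14023 windows of tested genes and 9.57% of all 32851 windows. CCAAT was in 57.1%, 37.9% and 37.4%, and the cell cycle homology region in 11.4%, 15.1% and 19.2%. By gene, 4 of the 5 lower genes with a window held an E2F-type motif, as did 12 of 26 genes that were not called. The match is a description of letters and shows no binding.

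The stretches from 180 bases before to 30 after the start are shown for those 5 genes, and for Atm, which had no difference beyond its spread but holds the same kinds of motif. Capitals mark E2F-type motifs and CCAAT, read on either strand. They lie at chr11:86201164-86201373 (minus strand) for Brip1, chr11:101551926-101552135 (minus strand) for Brca1, chr5:150522441-150522650 (plus strand) for Brca2, chr7:80534969-80535178 (minus strand) for Blm, chr6:112696641-112696850 (minus strand) for Rad18 and chr9:53536642-53536851 (minus strand) for Atm in GRCm38.p6.
Brip1: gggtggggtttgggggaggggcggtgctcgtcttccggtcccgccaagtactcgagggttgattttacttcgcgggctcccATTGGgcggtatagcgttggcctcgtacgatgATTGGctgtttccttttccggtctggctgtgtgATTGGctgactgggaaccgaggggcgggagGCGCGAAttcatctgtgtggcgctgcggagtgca
Brca1: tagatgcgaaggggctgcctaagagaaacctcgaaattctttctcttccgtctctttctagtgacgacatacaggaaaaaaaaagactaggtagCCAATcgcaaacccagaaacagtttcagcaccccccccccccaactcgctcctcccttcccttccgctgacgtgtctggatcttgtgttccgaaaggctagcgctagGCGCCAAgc
Brca2: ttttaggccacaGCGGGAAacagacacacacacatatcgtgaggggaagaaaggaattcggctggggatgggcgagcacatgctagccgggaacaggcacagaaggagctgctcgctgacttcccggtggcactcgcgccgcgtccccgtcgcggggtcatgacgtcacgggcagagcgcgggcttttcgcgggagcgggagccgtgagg
Blm: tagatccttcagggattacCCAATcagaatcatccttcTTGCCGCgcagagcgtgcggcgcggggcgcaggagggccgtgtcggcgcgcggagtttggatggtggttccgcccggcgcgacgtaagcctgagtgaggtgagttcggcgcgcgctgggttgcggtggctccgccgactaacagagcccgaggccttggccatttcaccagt
Rad18: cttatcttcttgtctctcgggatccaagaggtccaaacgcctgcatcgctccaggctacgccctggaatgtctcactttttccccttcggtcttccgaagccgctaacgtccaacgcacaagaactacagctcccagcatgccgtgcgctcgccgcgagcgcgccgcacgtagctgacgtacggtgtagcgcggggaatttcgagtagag
Atm: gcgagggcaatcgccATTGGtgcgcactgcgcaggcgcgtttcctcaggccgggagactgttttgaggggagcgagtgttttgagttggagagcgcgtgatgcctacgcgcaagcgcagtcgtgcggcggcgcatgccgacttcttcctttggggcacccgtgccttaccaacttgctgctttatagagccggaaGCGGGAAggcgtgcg
The stretch of Brip1 holds 3 CCAAT motifs, all on the strand opposite the gene, and an E2F-type motif across the start. In Brca1 the E2F-type motif lies after the start, in Brca2 and Blm far before it, and Rad18 has no capitals at all.

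The BRCA complexes held 3 of the 7 lower genes among 5 members. Brip1, the helicase FANCJ that binds BRCA1, lies on chromosome 11 (ENSMUSG00000034329) from 86058138 to 86201193 in GRCm38, the build of all coordinates given. Brip1 stood at 36.7, 40.9 and 29.9 CPM in old replicates 1, 2 and 3, against 74.9, 76.8 and 74.3 CPM in young replicates 1, 2 and 3. The old values were all well below the young ones, which lay within a narrow range, and the log2 fold change was −1.07 ± 0.16 SE (edgeR adjusted p = 0.00336). Brca1, a ubiquitin ligase subunit that directs breaks toward recombination, lies on chromosome 11 (ENSMUSG00000017146) from 101488764 to 101551955. The level of Brca1 was 45.5, 45.1 and 27.9 CPM in the 3 old libraries, replicates 1 to 3, and 88.7, 66.7 and 78.8 CPM in the 3 young ones. Old replicate 3 was the lowest, and the groups did not overlap. The log2 fold change of Brca1 was −0.98 ± 0.21 SE (edgeR adjusted p = 0.0202), and its adjusted p was 0.0533, 0.0503 and 0.0804 without old replicates 1, 2 and 3, and 0.0628 and 0.0547 without young replicates 1 and 3.

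Brca2, a mediator of recombination that works on single-stranded DNA, lies on chromosome 5 (ENSMUSG00000041147) from 150522630 to 150570329. Brca2 measured 143, 143 and 129 CPM in old replicates 1 to 3, and 221, 182 and 262 CPM in young replicates 1 to 3. The old libraries lay close together and below all young ones, among which young replicate 3 was the highest. Its log2 fold change was −0.68 ± 0.14 SE (edgeR adjusted p = 0.0182), with an adjusted p of 0.0732, 0.0698 and 0.12 without old replicates 1, 2 and 3 and of 0.053 without young replicate 3. Bard1 encodes the obligate partner of BRCA1. Bard1 had 17.5, 28.3 and 14.8 CPM in old replicates 1, 2 and 3, against 36.2, 31.1 and 39.8 CPM in young replicates 1, 2 and 3. Its groups did not overlap, although old replicate 2 came near young replicate 2, and the log2 fold change of −0.83 ± 0.26 SE was not called (edgeR adjusted p = 0.106). Without old replicate 2 it was called, with an adjusted p of 0.0364. Palb2, the bridge between BRCA1 and BRCA2, had overlapping groups and a log2 fold change of −0.34, with a 95% interval from −0.90 to 0.23.

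Among the genes that assist strand exchange or resolve the joined molecules, 2 of 4 were lower. Rad54b, a chromatin-remodelling motor related to RAD54, lies on chromosome 4 (ENSMUSG00000078773) from 11558922 to 11615805. Rad54b stood at 14.6, 8.39 and 14.1 CPM in old replicates 1, 2 and 3, against 31.8, 28.3 and 32.9 CPM in young replicates 1, 2 and 3. Each old library was far below every young one. The log2 fold change of −1.32 ± 0.25 SE was the largest decrease in the fit of all 6 libraries (edgeR adjusted p = 0.0127). Of its merged exon length, 35.8% is shared with Fsbp, a gene on the same strand at 5.84 and 8.07 CPM in old and young HSCs, so the split of counts between them is uncertain. Blm, the helicase lost in Bloom syndrome, lies on chromosome 7 (ENSMUSG00000030528) from 80454733 to 80535119. The level of Blm was 37.1, 32.3 and 34.1 CPM in the 3 old libraries, replicates 1 to 3, and 65.6, 52.4 and 60.8 CPM in the 3 young ones. The old libraries differed little and the groups were apart, with a log2 fold change of −0.79 ± 0.17 SE (edgeR adjusted p = 0.0211). The adjusted p of Blm was 0.0727, 0.0911 and 0.105 without old replicates 1, 2 and 3, and 0.0587 and 0.0586 without young replicates 1 and 3.

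Rad54l, the RAD54 motor itself, was not called. Rad54l measured 11.1, 13.0 and 11.6 CPM in old replicates 1 to 3, and 15.1, 17.8 and 20.8 CPM in young replicates 1 to 3. The groups did not overlap, and the log2 fold change was −0.59 ± 0.25 SE (edgeR adjusted p = 0.258). Its exons overlap those of Lrrc41 on the other strand over 15.4% of its exon length, and without a stated use of strand reads of such partners cannot be told apart. Rad51ap1, a cofactor of strand exchange, had a log2 fold change of −0.84 with a wide 95% interval from −1.66 to −0.021.

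Exo1 was the lower gene among the 9 that process break ends or cut branched DNA. It encodes the exonuclease that extends resection and lies on chromosome 1 (ENSMUSG00000039748) from 175880581 to 175913489. Exo1 had 35.9, 49.4 and 35.4 CPM in old replicates 1, 2 and 3, against 83.4, 86.0 and 74.7 CPM in young replicates 1, 2 and 3. Old replicate 2 stood above the other old libraries but far below every young one, and the log2 fold change was −1.02 ± 0.17 SE (edgeR adjusted p = 0.00609). The sensor complex of break ends showed smaller differences and no call. Rad50, its coiled-coil subunit, was the most abundant of the 39 genes per kilobase of exon in young HSCs. Rad50 stood at 299, 275 and 286 CPM in old replicates 1, 2 and 3, against 353, 324 and 369 CPM in young replicates 1, 2 and 3. Here the groups were apart by little, with a log2 fold change of −0.28 ± 0.10 SE (edgeR adjusted p = 0.17), and the 95% interval from −0.50 to −0.061 lay above −1. The level of Nbn was 45.9, 41.6 and 38.6 CPM in the 3 old libraries, replicates 1 to 3, and 93.9, 52.1 and 45.9 CPM in the 3 young ones. For Nbn, the subunit that recruits ATM, the gap between the groups was slight and young replicate 1 stood well above the others. Its log2 fold change of −0.61 was −0.22 without young replicate 1. Mre11a, the nuclease subunit, had overlapping groups and a log2 fold change of −0.13 (95% interval from −0.51 to 0.24).

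The structure-selective nucleases and their scaffold differed in level. Mus81 had means of 4.31 CPM in old and 4.98 CPM in young HSCs, Fan1 of 15.7 and 18.5 CPM, and Slx4 of 49.9 and 55.4 CPM. Eme1, the partner of the MUS81 nuclease, was among the least abundant. Eme1 measured 5.48, 3.19 and 1.92 CPM in old replicates 1 to 3, and 6.02, 5.57 and 9.54 CPM in young replicates 1 to 3. The old values lay below the young ones, but the log2 fold change of −0.99 ± 0.47 SE was not called (edgeR adjusted p = 0.325). Mus81 itself had a log2 fold change of −0.21, Slx4, the scaffold of these nucleases, of −0.15, Fan1, the FANCD2-associated nuclease, of −0.24, and Rbbp8, the resection factor CtIP, of −0.37. The groups of these last 4 genes overlapped.

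Among the checkpoint and fork signalling genes, Rad18 was the lower one of 6. It encodes the ubiquitin ligase that marks PCNA at stalled forks, and lies on chromosome 6 (ENSMUSG00000030254) from 112619850 to 112696686. Rad18 had 52.6, 46.8 and 43.2 CPM in old replicates 1, 2 and 3, against 79.1, 71.96 and 89.1 CPM in young replicates 1, 2 and 3. The groups were clearly apart, with a log2 fold change of −0.75 ± 0.15 SE (edgeR adjusted p = 0.0183). Its adjusted p was 0.053, 0.0763 and 0.115 without old replicates 1, 2 and 3 and 0.0648 without young replicate 3. The kinase genes are paired in pathways, with ATM acting on CHK2 and ATR on CHK1.

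Chek1 stood at 39.02, 33.4 and 22.7 CPM in old replicates 1, 2 and 3, against 61.6, 44.2 and 61.4 CPM in young replicates 1, 2 and 3. Chek1 thus had non-overlapping groups, with young replicate 2 nearest to the old libraries, and its log2 fold change of −0.81 ± 0.23 SE was not called (edgeR adjusted p = 0.0721). The level of Chek2 was 42.6, 30.7 and 28.7 CPM in the 3 old libraries, replicates 1 to 3, and 71.9, 46.4 and 49.8 CPM in the 3 young ones. Chek2 had its highest value in young replicate 1 and no overlap between the groups, and its log2 fold change was −0.72 ± 0.22 SE (edgeR adjusted p = 0.107). The upstream kinases were nearer to 0. Atr measured 167, 153 and 161 CPM in old replicates 1 to 3, and 239, 178 and 179.8 CPM in young replicates 1 to 3. Atr had groups that were apart by little, with a log2 fold change of −0.31 ± 0.13 SE (edgeR adjusted p = 0.269). Atm had 293, 253 and 238 CPM in old replicates 1, 2 and 3, against 268, 243 and 277 CPM in young replicates 1, 2 and 3. Atm showed overlapping groups with old replicate 1 the highest of all, a log2 fold change of −0.0085 ± 0.11 SE and a 95% interval from −0.26 to 0.24. Topbp1, the activator of ATR, completes the group. Topbp1 stood at 243, 242 and 204 CPM in old replicates 1, 2 and 3, against 306, 253 and 288 CPM in young replicates 1, 2 and 3. Its groups were apart, and the log2 fold change of −0.30 ± 0.12 SE was not called (edgeR adjusted p = 0.224).

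None of the 8 genes of the Fanconi core complex and its ubiquitin transfer was called. Fanca, a core scaffold subunit, had the second lowest estimate of the 39. The level of Fanca was 7.97, 6.29 and 6.23 CPM in the 3 old libraries, replicates 1 to 3, and 21.0, 9.33 and 19.2 CPM in the 3 young ones. Young replicate 2 lay near the old libraries, well under the other young ones. The log2 fold change of −1.27 ± 0.34 SE missed the threshold (edgeR adjusted p = 0.0667), and it passed without young replicate 2 (adjusted p = 0.0185). Of its exon length, 10.5% overlaps Zfp276 on the other strand. Opposite-strand overlaps of 0.436% of the exon length in Xrcc3 to 14.96% in Fancf, with Eme1, Fancc, Fancl, Mre11a and Mus81 between them, leave the same uncertainty. Fance, the subunit that binds FANCD2, had the highest estimate of the 39. Fance measured 10.4, 10.3 and 13.7 CPM in old replicates 1 to 3, and 6.35, 13.8 and 9.97 CPM in young replicates 1 to 3. Its groups overlapped fully, and the log2 fold change was 0.19 ± 0.34 SE, or −0.046 without young replicate 1. Fancl encodes the ubiquitin ligase of the complex. Fancl had 21.3, 25.9 and 19.7 CPM in old replicates 1, 2 and 3, against 23.9, 20.3 and 24.0 CPM in young replicates 1, 2 and 3. The old and young values were intermixed, with a log2 fold change of −0.029 and a 95% interval from −0.50 to 0.44. The direction of Fancl was not fixed, since its log2 value ran from −0.14 to 0.062 when 1 library at a time was left out.

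The other core genes had overlapping groups throughout. Their log2 fold changes were −0.33 for Fancm, the motor that anchors the complex to DNA, −0.35 for Fancc, −0.072 for Fancf and −0.41 for Fancg, subunits of the complex, and −0.44 for Ube2t, the ubiquitin-conjugating enzyme. Ube2t had the lowest level of the 39 per kilobase of exon in young HSCs, 0.960 CPM per kilobase against 64.8 for Rad50. The 95% intervals of Fancc, Fancg and Ube2t each held both 0 and a 2-fold decrease. The direction of Fancc and Fancf was not fixed, since Fancc stood at 0.15 on the log2 scale without young replicate 2 and Fancf at 0.36 without young replicate 1.

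The substrates of the core complex had lower estimates than most of its subunits, though neither was called. Fancd2 is the one whose ubiquitin mark starts the repair. Fancd2 stood at 10.3, 8.22 and 15.5 CPM in old replicates 1, 2 and 3, against 23.8, 19.3 and 29.1 CPM in young replicates 1, 2 and 3. Old replicate 3 was the nearest to the young libraries, and the log2 fold change was −1.08 ± 0.29 SE (edgeR adjusted p = 0.0629). The level of Fanci was 15.4, 26.8 and 24.4 CPM in the 3 old libraries, replicates 1 to 3, and 27.6, 27.9 and 35.4 CPM in the 3 young ones. Fanci, its partner, had groups that almost touched and a log2 fold change of −0.45 ± 0.24 SE (edgeR adjusted p = 0.398). Fanci shares 16.0% of its exon length with Polg on the other strand. Whether the pair differed from each other was not tested.

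Of the 5 recombination paralogues, which assist strand exchange, none was called. Xrcc3 stood out by its estimate. Xrcc3 measured 13.3, 6.54 and 13.3 CPM in old replicates 1 to 3, and 23.9, 21.0 and 21.0 CPM in young replicates 1 to 3. Its groups did not overlap, old replicate 2 was the lowest, and the log2 fold change was −0.98 ± 0.30 SE (edgeR adjusted p = 0.0969). Xrcc2 had the opposite sign. Xrcc2 had 18.3, 19.0 and 15.3 CPM in old replicates 1, 2 and 3, against 14.8, 18.6 and 17.9 CPM in young replicates 1, 2 and 3. The groups were intermixed, and its log2 fold change of 0.034 ± 0.23 SE turned to −0.023 with library size alone as the scaling. Rad51b, Rad51c and Rad51d had log2 fold changes of −0.31, −0.25 and −0.18 with overlapping groups. Rad51b ran from 6.50 to 9.99 CPM in the old libraries and more widely, from 2.04 to 17.4 CPM, in the young ones. Its log2 fold change was 0.31 without young replicate 3, and that of Rad51c 0.036 without young replicate 1.

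Level and spread differed between called and other genes. All 7 called genes had a young mean of at least 20 CPM, whereas 14 of the 32 other genes lay below it. For 16 of the 32 the 95% interval of the log2 fold change lay above −1, and for 7 it held both 0 and −1. For 12 of the 32 the interval lay wholly below 0, although none passed the adjustment over all genes.

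**Figure D3:**
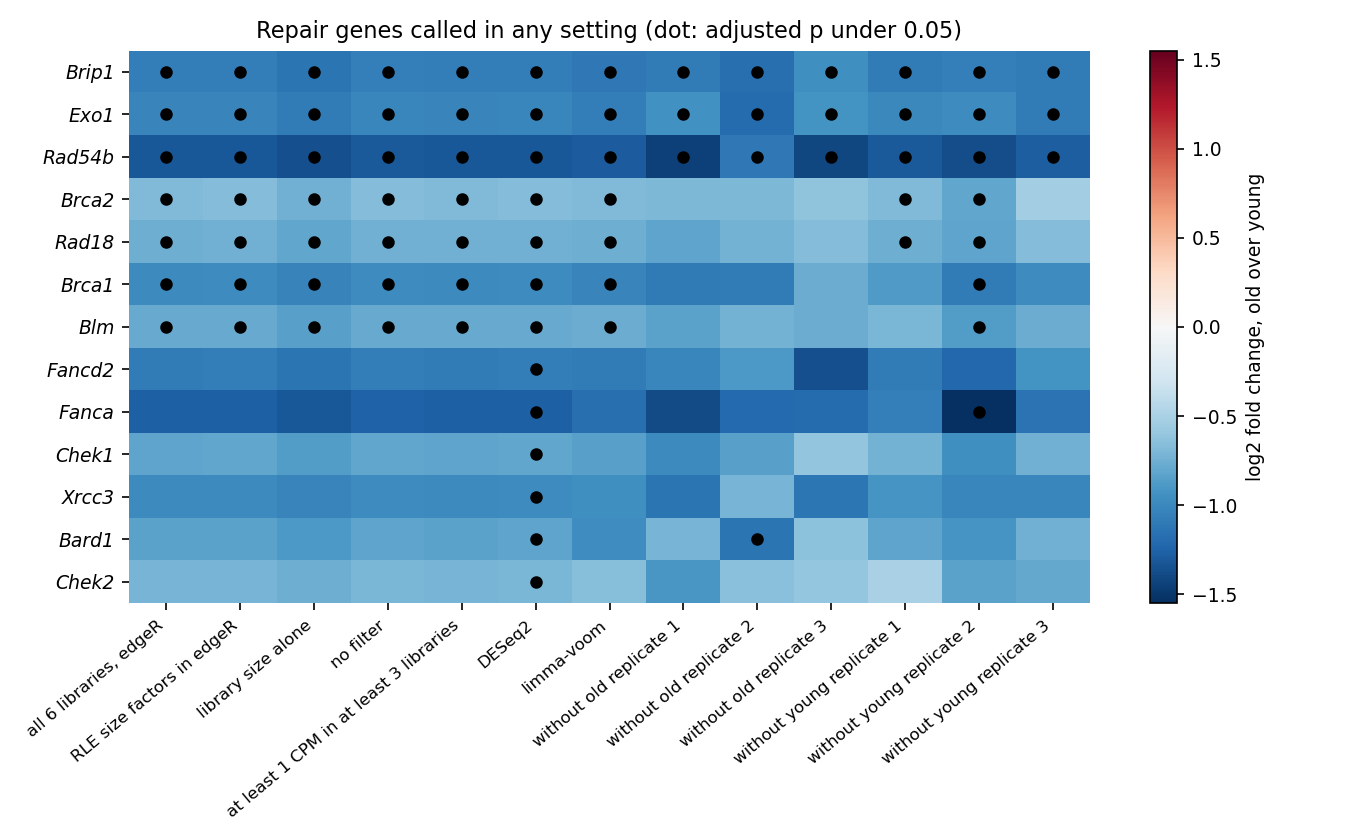
Log2 fold change, old over young (colour), of the 13 repair genes called in any setting, in the edgeR fit of all 6 libraries and 12 alternatives (columns). Black dots mark an adjusted p under 0.05, which Brip1, Exo1 and Rad54b reached in all 13 columns, and every cell is below 0.

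Further genes of the pathway were also called lower, and none higher. Of 76 other listed genes, 72 were measured, of crosslink repair, recombination and fork signalling, and 6 of the 72 (8.33%) were lower. Of all tested genes, 1.54% were called lower and 2.45% higher. The median of the 72 was −0.34 on the log2 scale, against −0.017 for all tested genes. For 30 of them (41.7%) the old values all lay below the young ones, which held for 10.8% of all tested genes. Of the 6, 5 are given here. They were Tipin, a fork protection factor (−0.94), Uhrf1, a chromatin and crosslink-binding protein (−1.02), Gen1, a Holliday junction nuclease (−1.12), Polq, the polymerase of microhomology-mediated joining (−0.99), and Parpbp, an inhibitor of homologous recombination (−0.996), each value being a log2 fold change. Uhrf1 and Gen1 were each called in 9 of 12 alternatives, Polq in 6 and Parpbp in 5. The count of 6 became 3, 2 or 1 on leaving out old replicate 1, 2 or 3, and 2, 6 or 3 on leaving out young replicate 1, 2 or 3, and Tipin was called in each of these fits.

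Genes of proliferation were also lower. Of 18 listed, 15 (83.3%) were lower in old HSCs and none higher, where 1.54% of all tested genes were called lower and 2.45% higher. The median of the 18 was −0.85 on the log2 scale. Their summed level was 2624, 2793 and 2194 CPM in old replicates 1, 2 and 3, against 5039.8, 4289 and 4852 CPM in young replicates 1, 2 and 3. Mki67, the proliferation antigen Ki-67, had a log2 fold change of −1.15 ± 0.14 SE (edgeR adjusted p = 0.00086). Top2a, the topoisomerase that untangles replicated DNA, had −1.11 ± 0.15 SE and Aurkb, a mitotic kinase, −1.35 ± 0.20 SE on the same scale (edgeR adjusted p = 0.00171 and 0.00311). The count of 15 became 8, 10 or 6 on leaving out old replicate 1, 2 or 3, and 9, 12 or 10 on leaving out young replicate 1, 2 or 3. The part of proliferation in the lower repair transcripts was not tested.

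**Figure D4:**
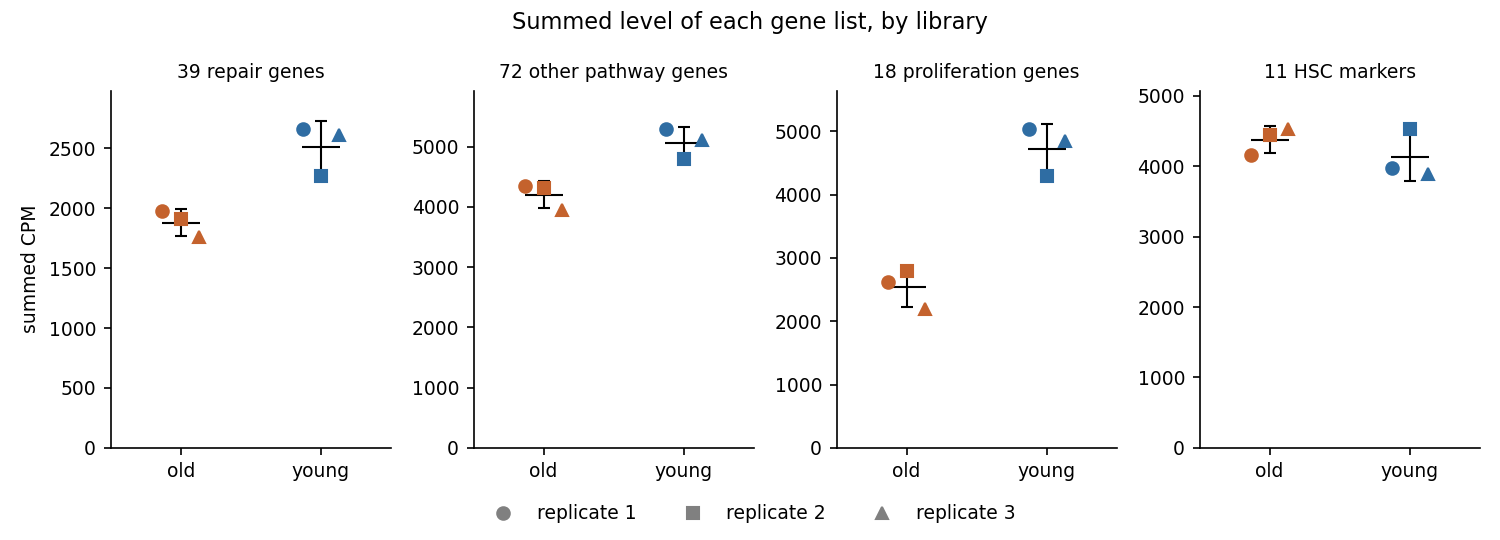
Summed CPM (vertical axes, from 0) of the 39 repair genes, 72 other pathway genes, 18 proliferation genes and 11 HSC markers in each library, with old left of young. Symbols give the replicate, bars the mean and error bars the SD (n = 3), and the old libraries lie below the young ones in the first 3 panels but not in that of the HSC markers.

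Markers of other cell types also differed between the groups. The calls below stand beside 1.54% of all tested genes called lower and 2.45% called higher. Of 14 macrophage markers, 13 were tested and 10 were lower, the list summed to 22.4, 17.2 and 18.1 CPM in old replicates 1, 2 and 3, against 98.5, 86.7 and 90.4 CPM in young replicates 1, 2 and 3, and 5 of the 14 had no count in any old library. Of 6 multipotent progenitor markers, 5 were in the table and 3 were lower, with a sum of 84.2, 72.1 and 74.4 CPM in old replicates 1, 2 and 3, against 182, 204 and 182 CPM in young replicates 1, 2 and 3. Of 12 erythroid markers, 10 were tested and 4 were lower, with a sum of 728, 744 and 892 CPM in old replicates 1, 2 and 3, against 1173, 837 and 804 CPM in young replicates 1, 2 and 3. Of 9 neutrophil markers, 6 were tested, 4 were lower and 1 was higher, with a sum of 75.1, 100.5 and 103 CPM in old replicates 1, 2 and 3, against 264, 45.8 and 73.4 CPM in young replicates 1, 2 and 3. Young replicate 1 was the highest library in the erythroid and neutrophil sums. Of 6 endothelial markers in the table, Kdr and Cldn5 were higher, and the list summed to 293, 345 and 349.9 CPM in old replicates 1, 2 and 3, against 206, 295 and 276 CPM in young replicates 1, 2 and 3. None of the tested B cell (2), T and NK cell (4) or megakaryocyte (6) markers was called. The megakaryocyte list summed to 58.6, 69.5 and 67.1 CPM in old replicates 1, 2 and 3, against 56.7, 76.8 and 74.5 CPM in young replicates 1, 2 and 3. The B cell list reached at most 20.6 CPM in an old and 21.3 CPM in a young library, and the T and NK cell list 12.7 CPM in an old and 22.3 CPM in a young one. Cd79a, Ms4a1, Pax5, Cd3e, Cd3g, Klrd1, Cdh5 and Dntt were not among the genes of the table. The part of these cells in the repair gene levels was not tested.

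The authors' deposited table gives its log2 fold changes as young over old, as shown by the opposite sign of all 570 genes called from the counts. In that table, 8 of the 39 genes had an adjusted p under 0.05, all lower in old HSCs, where 2.6% of its genes with an adjusted p were lower and 3.57% higher. Of these 8 genes, 6 were also called from the counts by edgeR. Chek1 and Topbp1 were called in the authors' deposited table and not by edgeR, and Brca2 by edgeR and not in that table. DESeq2 on the same counts called Chek1 (DESeq2 adjusted p = 0.0105) and Brca2 (adjusted p = 0.000315), but not Topbp1 (adjusted p = 0.192). In the authors' deposited table Brip1 had a log2 value of 1.01 (adjusted p = 6.84e-07), Blm of 0.91 (adjusted p = 0.00013) and Brca2 of 0.57 (adjusted p = 0.091). Exo1 had 0.57 (adjusted p = 0.048) and Rad54b 0.74 (adjusted p = 0.0439) there. These 2 were smaller in size than the −1.02 and −1.32 from the counts by edgeR. Blm, at −0.79 by edgeR, was larger in the authors' deposited table. DESeq2 on the same counts gave −1.01 for Exo1, −1.31 for Rad54b and −0.78 for Blm. How the authors' fold changes were estimated is not stated in the sources used here, and the cause of the differences was not tested. Xrcc2 was the gene whose direction differed, with 0.58 as young over old in the authors' deposited table (adjusted p = 0.0805). For 23 of the 39 genes, the authors' deposited base mean and the average count over size factors differed by at most 2%. The base mean of Chek1 was 113% and that of Chek2 109% of this average. The base means of some genes were thus not reproduced from the deposited counts by these size factors, and the cause was not tested.

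**Figure D5:**
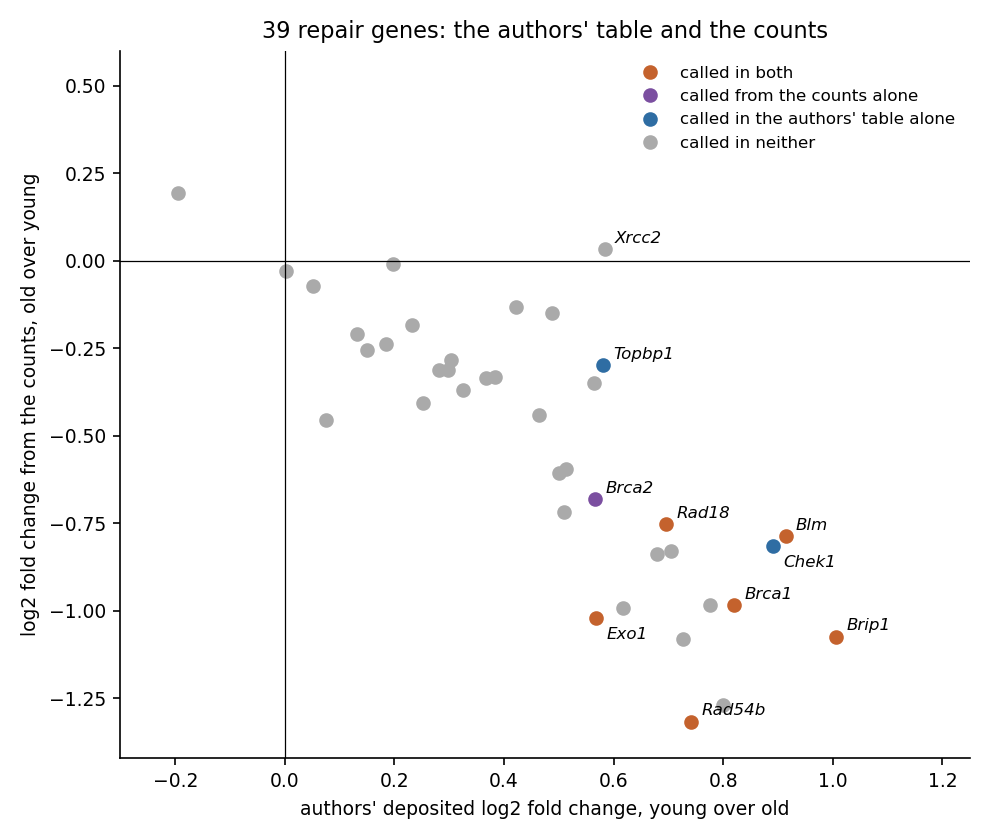
Log2 fold change of the 39 repair genes from the counts, old over young (vertical axis), against the authors' deposited value, young over old (horizontal axis). Colours give where each was called, by edgeR for the counts. A gene lower in old HSCs in both lies at the lower right, as 37 of 39 do, while Xrcc2 lies at the upper right and Fance at the upper left.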

How the data were processed

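Low-input libraries were made from RNA of sorted HSCs, per the labels' protocols, and 50 bases were read from one end, per the design text. Salmon, DESeq2, FastQC, MultiQC and the build GRCm38 are named in the submitters' processing notes, without versions, roles or order. The authors deposited a table of estimated counts per gene, all whole numbers, so nothing was rounded. They also deposited a comparison with a base mean per gene (a normalised signal), the authors' log2 fold change with its standard error, the deposited test score, and the authors' p-value and adjusted p-value.

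Genes were matched by Ensembl identifier, version removed, to GENCODE M21 on GRCm38, which also gave coordinates and merged exon lengths. The fit used edgeR 4.0.16 under R 4.3.3 (filterByExpr, minimum count 10, minimum total 15; TMM, quasi-likelihood F test of old over young, Benjamini-Hochberg adjustment over all tested genes). All tests were two-sided. SE is the log2 fold change over the root of F, and 95% intervals use the moderated degrees of freedom. DESeq2 1.42.0 and limma 3.58.1 (voom) served as alternatives, beside RLE factors, library size alone, no filter, 1 CPM in 3 libraries, and leaving out each library. Intervals cover the spread between these 3 samples a group, which the design calls biological replicates. In simulated counts for 14039 genes, 71.0% of the 93 genes changed by 1 on the log2 scale were recovered for old over young, as were 107 of the 107 changed by 2, with 9 false calls among the unchanged genes. The counts were drawn with the spread estimated from these libraries, and only genes with a mean of at least 10 CPM were changed. Recovery at lower levels was not measured.

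The members, lists and tests were chosen with earlier results of these data known. Values by library are given for genes that were called, were among the 12 smallest p or the 4 highest log2 fold changes, or had non-overlapping groups. Replicate numbers are names only. Among the other pathway genes and the HSC markers, 1 gene each is not reported here by name.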

Additional observations from a re-analysis of the deposited data

How the results depend on the processing

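Across 12 alternatives no repair gene was called higher, and the median log2 fold change of the 39 genes stayed below 0. The count of lower repair genes was 7 with RLE factors, library size alone, no filter, the filter of 1 CPM and limma-voom, 13 with DESeq2, and between 3 and 8 when 1 library was left out. Over all genes, lower calls numbered 214 with RLE factors, 298 with library size alone and 201 with limma-voom, of 14288 each. They numbered 172 of 16312 with no filter, 235 of 13239 with the filter of 1 CPM and 494 of 15335 with DESeq2. With 1 library left out they lay between 79 and 167. Other pathway genes called lower numbered 3 with no filter, 17 with DESeq2 and between 1 and 6 with 1 library left out. Over all genes the calls numbered 1146 with DESeq2, against 570, and between 245 and 473 with 1 library left out, while lower proliferation genes ran from 6 to 12. The number of repair genes with a log2 fold change below 0 lay between 34 and 38 over the 12 alternatives, against 37, and 8 genes changed sign in at least 1, none of them called in any setting. Leaving out 1 library gave log2 values from −0.046 to 0.49 for Fance, from −0.14 to 0.062 for Fancl, from −0.059 to 0.13 for Xrcc2, from −0.090 to 0.065 for Atm, from −0.80 to 0.31 for Rad51b, from −0.27 to 0.36 for Fancf, from −0.73 to 0.15 for Fancc and from −0.44 to 0.036 for Rad51c. Xrcc2 stood at −0.023 with library size alone and Atm at 0.0012 with no filter, and with limma-voom Rad51b stood at 0.074 and Fancf at 0.0077. The cause was not tested. No paired analysis was possible because the labels give no replicate numbers shared by the groups. In the edgeR fit of all 6 libraries none of the 14 genes under 20 CPM in young HSCs was called, while Fanca, one of the 14, was called with DESeq2 and without young replicate 2.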
